A study of Mus musculus with 10 samples.

Results

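The 10 genes described here mark or maintain memory and progenitor CD8+ T cells. They are the transcription factor genes Tcf7, Lef1, Satb1, Id3, Bach2, Myb, Foxo1, Bcl6 and Zeb1, and Slamf6, which encodes a surface receptor of progenitor cells. They were taken as a named list of known regulators from the 34932 genes in the deposited tables, with earlier results of these data known. All 10 were among the 11781 genes with enough counts to be tested. Sequenced RNA came from gp100-specific Pmel CD8+ T cells that carried a retroviral MSCV-IRES-Thy1.1 (MIT) vector. The cells were transferred into mice bearing B16-F10 melanoma, and day 7 was the time of recovery from the tumor. In 5 libraries the cells had received the vector with the mouse BATF reading frame (labelled MIT-BATF), and in 5 libraries the empty vector (labelled MIT-Empty). Each library came from 2000 live Thy1.1+ Pmel cells sorted from the tumor of 1 mouse. All cells of both groups came from Pmel-Thy1.2 splenocytes activated with gp100 peptide and grown in IL-2, IL-7 and IL-15, so the MIT-Empty cells were activated and transduced as well. The recipients were Ly5.1 mice, which still had T cells of their own, and the study used adult mice of both sexes. The vector drives BATF from a retroviral promoter at any stage of the cell, and cells that lost Thy1.1 were not collected.

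As background, naive and memory T cells keep a set of transcription factors that hold them in a quiescent, long-lived and self-renewing state, and most of these genes are turned down as cells become effectors. TCF1 (from Tcf7) and LEF1 bind the same DNA motif and can recruit beta-catenin or Groucho/TLE corepressors. FOXO1 acts upstream of several memory genes, BACH2 competes with AP-1 factors for their sites, and ID3 and ID2 both block E proteins but belong to memory and effector states. In tumors and chronic infection, cells that express TCF1 and SLAMF6 renew themselves and give rise to the exhausted pool. BATF is itself an AP-1 factor, which pairs with JUN proteins and IRF4.

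Of the 10 genes, 2 passed the test and both were higher in MIT-BATF cells: Satb1, a chromatin organizer, by 2.43-fold, and Lef1 by 2.00-fold. With reads shared between nested libraries counted once, Satb1 alone passed (Lef1 edgeR adjusted p = 0.108). When either the contained or the containing libraries were left out, with 3 libraries a group, 0 of the 10 passed. The share over all genes was not counted for those fits, so this 0 is not read as a result about these genes. As lower, 0 of the 10 passed in edgeR and 0 in DESeq2. At an unadjusted edgeR p under 0.05, 4 were higher (Bach2, Foxo1, Lef1 and Satb1) and 2 were lower (Id3 and Myb). The share over all genes was not counted at the unadjusted p or in DESeq2. Over all genes tested, 4.58% passed, 2.16% higher and 2.43% lower. Tcf7, the defining gene of the progenitor state, differed by 1.02-fold with a 95% interval of 0.71 to 1.46. Bach2 was next in size on the higher side and Myb and Id3 lay on the lower side, and all 3 missed the threshold. The median log2 fold change of the 10 genes was 0.27, beside 0.01 for all genes tested.

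Several facts about the libraries stand before these results. The MIT-BATF libraries held 10702740 to 34102086 counts each, and the MIT-Empty libraries 6534472 to 21355657. In 4 pairs of libraries of the same group, nearly every count of the smaller library lay within that of the larger one: MIT-BATF 4 within 2, MIT-BATF 5 within 3, MIT-Empty 4 within 2 and MIT-Empty 5 within 3. In these pairs the smaller library exceeded the larger in 0.286% to 0.661% of genes with at least 5 counts, and in every other pair in at least 3.54%. For the 10 genes the smaller count was no higher than the larger in 40 of 40 comparisons. The pairs thus appear to share reads, and p-values over 10 libraries may be too small. A second fit subtracted each contained library from the one that held it (shared reads counted once), which called 1.26% of 11131 genes, 0.575% higher and 0.683% lower. Batf itself was not higher in the libraries labelled MIT-BATF, with 12.4, 22.6, 23.5, 24.8 and 26.5 CPM (counts scaled to library size with TMM factors), against 13.5, 19.9, 36.8, 24.9 and 50.8 CPM in those labelled MIT-Empty (log2 fold change -0.41, edgeR adjusted p = 0.522). Whether the transcript of the vector was counted as Batf is not known, so the direction of every difference rests on the library labels. Mitochondrial transcripts took 33.2% of counts in MIT-BATF library 1, 11.5% to 15.1% in the other MIT-BATF libraries and 15.5% to 23.1% in MIT-Empty libraries.

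The start regions of the genes whose transcripts are discussed below are shown because they place each transcript on the genome. All are from RefSeq on GRCm38.p6, in the direction of transcription, from 250 bases before to 30 bases after an annotated start. Lef1 lies on chromosome 3 at 131110471 to 131224356 (plus strand), Satb1 on chromosome 17 at 51736187 to 51833290 (minus strand) and Tcf7 on chromosome 11 at 52252371 to 52283014 (minus strand). Capitals mark the 24-base first exon of transcript Lef1-203, the first base of Satb1-204 and of Satb1-208, and a match to the FOXO motif at the RefSeq start that lies 24 bases before the first base of Tcf7-201.
Lef1-203, chr3:131112541-131112820, plus strand: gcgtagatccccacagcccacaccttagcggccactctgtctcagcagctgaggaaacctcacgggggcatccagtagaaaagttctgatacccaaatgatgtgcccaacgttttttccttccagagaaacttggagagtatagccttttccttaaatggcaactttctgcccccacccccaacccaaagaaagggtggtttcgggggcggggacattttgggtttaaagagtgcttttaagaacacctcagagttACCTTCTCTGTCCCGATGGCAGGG
Satb1-204, chr17:51833261-51833540, minus strand: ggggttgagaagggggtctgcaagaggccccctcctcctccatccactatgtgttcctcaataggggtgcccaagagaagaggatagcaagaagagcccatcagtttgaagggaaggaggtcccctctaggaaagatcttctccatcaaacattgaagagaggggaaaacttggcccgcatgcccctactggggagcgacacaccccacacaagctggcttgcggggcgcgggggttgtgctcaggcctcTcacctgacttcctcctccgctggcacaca
Satb1-208, chr17:51832618-51832897, minus strand: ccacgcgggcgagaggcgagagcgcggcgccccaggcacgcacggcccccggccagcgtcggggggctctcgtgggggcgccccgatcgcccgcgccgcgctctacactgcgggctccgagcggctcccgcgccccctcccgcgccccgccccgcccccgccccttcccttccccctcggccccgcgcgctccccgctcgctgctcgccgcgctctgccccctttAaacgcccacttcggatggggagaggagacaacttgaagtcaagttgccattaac
Tcf7-201, chr11:52282566-52282845, minus strand: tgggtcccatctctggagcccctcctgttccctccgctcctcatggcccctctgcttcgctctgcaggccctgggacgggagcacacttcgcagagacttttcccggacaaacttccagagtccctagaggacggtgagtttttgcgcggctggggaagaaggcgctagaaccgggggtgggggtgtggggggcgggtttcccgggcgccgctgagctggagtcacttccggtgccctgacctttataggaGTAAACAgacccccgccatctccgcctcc

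RefSeq start windows of 300 bases were found for 9 of the 10 genes, 18 windows in all, and both strands were searched for 5 motifs. The AP-1 motif TGANTCA was in 0 of the 18 windows and in 7.81% of 32851 windows over all genes. The composite elements of AP-1 and IRF factors hold the AP-1 motif after an IRF element, with and without a 4-base spacer. Their count of 0 in the 18 windows therefore follows from that of the AP-1 motif. They were in 0.119% and 0.125% of all windows. The TCF and LEF motif CTTTGA was in 3 windows, those of Bach2, Bcl6 and a downstream start of Lef1, and in 16.0% of all windows. The FOXO motif GTAAACA was in 2 windows, of Myb and Tcf7, and in 3.65% of all windows. These are matches of letters in short windows, some of which overlap for Lef1 and Satb1, and binding was not measured.

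The genes were first ordered by level per transcript length, in TPM (as deposited, adjusted for the length of each transcript and for library size). Over the 10 libraries Satb1 was highest with a mean of 31.4 TPM, followed by Tcf7 with 21.0 TPM and Slamf6 with 18.9 TPM. Id3 had 10.2 TPM, and the other 6 lay between 7.24 TPM (Zeb1) and 4.57 TPM (Foxo1). Of the 9 neighbouring pairs in this order, only Slamf6 over Id3 kept its direction in 10 of 10 libraries. The other 8 pairs kept theirs in 4 to 7 of 10, so their order is not set apart from the spread. In MIT-BATF libraries Satb1 had rank 1 and Myb rank 10, while in MIT-Empty libraries Satb1 had rank 3 and Myb rank 5. Counts behind these levels were lowest for Lef1, with 53 counts in MIT-Empty library 4, and highest for Satb1, with 11266 counts in MIT-BATF library 3.

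**Figure D1:**
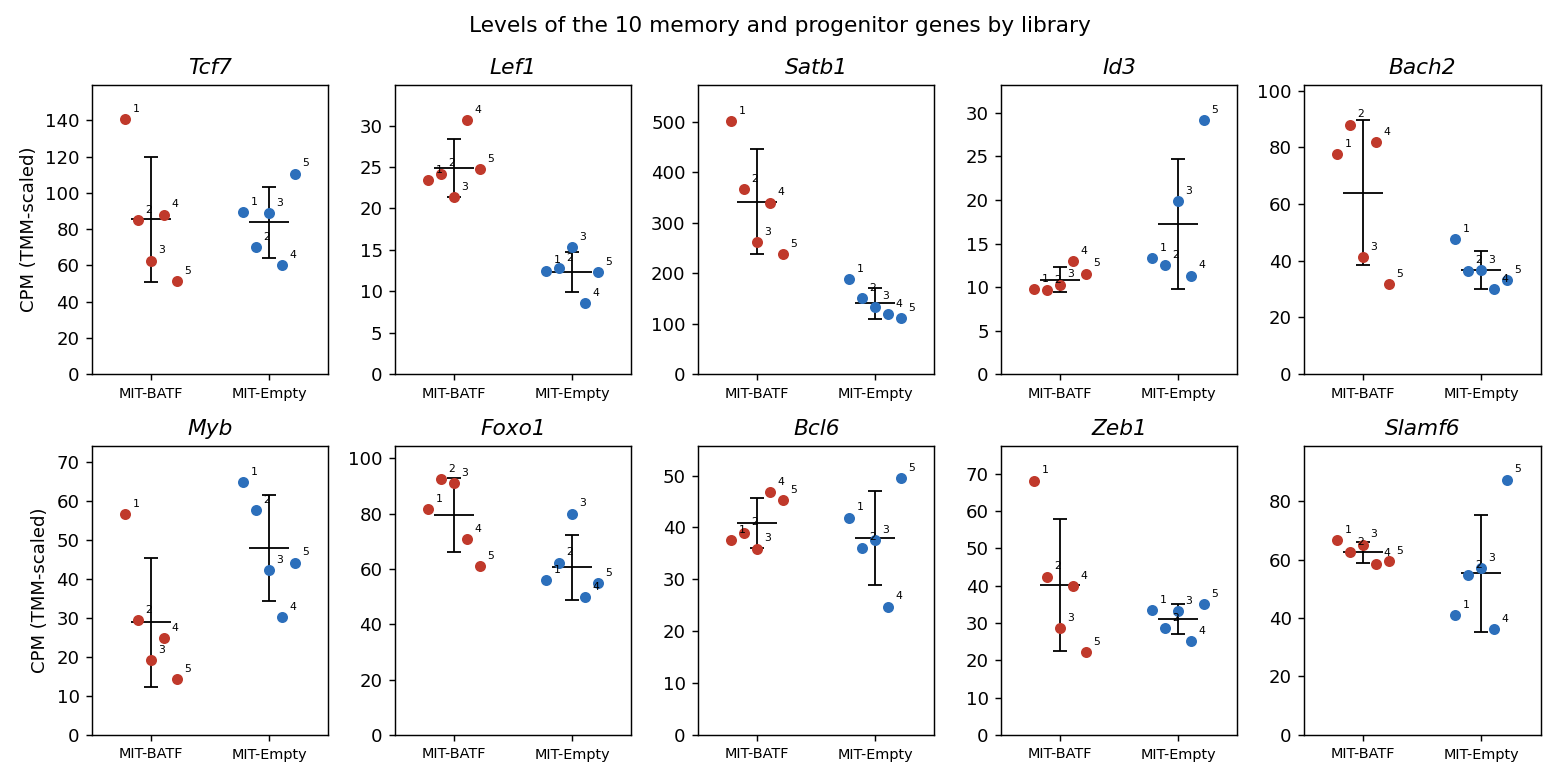
CPM (TMM-scaled, vertical axes starting at 0) of the 10 genes in each library, MIT-BATF left and MIT-Empty right; numbers are replicates, the horizontal bar is the mean and the whiskers 1 SD (n = 5 libraries each). Satb1 and Lef1 show no overlap between the groups, with MIT-BATF at 238 CPM or more and MIT-Empty at 187 CPM or less for Satb1.

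Satb1 encodes a nuclear matrix protein that folds chromatin and recruits histone-modifying enzymes, and it is high in thymocytes and naive T cells. It was at 501, 367, 261, 339.6 and 238 CPM in MIT-BATF libraries 1 to 5, against 187, 151, 134, 119 and 110.1 CPM in MIT-Empty libraries 1 to 5. The lowest MIT-BATF value exceeded the highest MIT-Empty value, and groups without overlap were found for 6.45% of all genes tested. The log2 fold change was 1.28 (SE 0.21, 95% interval 0.83 to 1.73, edgeR adjusted p = 0.00309). With shared reads counted once it was 1.23 (95% interval 0.72 to 1.75, edgeR adjusted p = 0.0182), and the groups still did not overlap. The call was lost when the 4 contained libraries were left out, with 3 a group (log2 fold change 1.28, edgeR adjusted p = 0.0519) or the 4 containing ones (1.38, adjusted p = 0.13). Within MIT-BATF the level was lowest in library 5 and highest in library 1, the library with the largest mitochondrial share. The part of that share in the spread was not tested, and the log2 fold change stayed between 1.11 and 1.42 when any 1 library was left out.

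Satb1 reads were assigned to several transcripts that begin at different first exons. Satb1-204, with the 128-base first exon at 51833163 to 51833290, held 44.2% of Satb1 TPM on average, and Satb1-208, with a 203-base first exon at 51832470 to 51832672, held 31.7%. Both encode 764 codons and have 9 exons in common, so reads tell them apart only at the ends. Satb1-204 was at 14.6, 26.4, 27.6, 21.3 and 15.9 TPM in MIT-BATF libraries, against 7.38, 6.85, 8.65, 5.35 and 7.23 TPM in MIT-Empty libraries. Satb1-208 was at 23.6, 17.1, 7.49, 12.99 and 4.81 TPM in MIT-BATF libraries, against 10.1, 5.97, 5.41, 5.81 and 3.00 TPM in MIT-Empty libraries. The groups were separate for Satb1-204 and overlapped for Satb1-208. As a share of Satb1 TPM, Satb1-204 took 46.3 ± 7.62% in MIT-BATF and 42.1 ± 6.92% in MIT-Empty cells (SD, n = 5 each; exact two-sided permutation test, p = 0.397, adjusted p = 0.661 over 5 genes). A change in this share was thus not shown, while the level of the gene differed. Satb1-204 is 3461 bases long and Satb1-208 is 6243, so most of their difference lies outside the first exons. The share therefore does not test the choice of start.

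Lef1 encodes the partner of TCF1 that binds the same motif, and it is kept on in naive and memory cells. It was at 23.4, 24.2, 21.4, 30.6 and 24.7 CPM in MIT-BATF libraries, against 12.5, 12.8, 15.3, 8.57 and 12.3 CPM in MIT-Empty libraries. The groups did not overlap, with MIT-BATF library 3 as the lowest above MIT-Empty library 3 as the highest. The log2 fold change was 1.00 (SE 0.17, 95% interval 0.64 to 1.37, edgeR adjusted p = 0.00378). The spread within MIT-BATF was small, with a coefficient of variation of 13.9%, beside 30.4% for Satb1. With shared reads counted once the log2 fold change was 0.81 (95% interval 0.33 to 1.28) and the call was lost (edgeR adjusted p = 0.108), though the groups again did not overlap. It was also lost without the contained libraries (0.79, adjusted p = 0.0931) and without the containing ones (1.24, adjusted p = 0.128).

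Nearly all Lef1 RNA was assigned to the short form. Lef1-203, which begins with the 24-base exon shown above at 131112797 to 131112820 and encodes 331 codons, held 90.3 ± 5.55% of Lef1 TPM in MIT-BATF cells and 90.6 ± 6.61% in MIT-Empty cells (SD, n = 5 each). Lef1-201 begins upstream with a 1208-base exon at 131110471 to 131111678, encodes 397 codons and has 11 of its 12 exons in common with Lef1-203, and it held 0.208% over the 10 libraries. Reads tell Lef1-201 and Lef1-203 apart only at their first exons, so the assignment rests on reads from the start of the transcript. The longer N terminus of LEF1 carries the beta-catenin binding region, which is known as background and was not measured here. Lef1-203 was at 4.74, 6.46, 6.45, 5.83 and 4.97 TPM in MIT-BATF libraries, against 2.40, 2.68, 4.11, 2.14 and 2.70 TPM in MIT-Empty libraries. The groups were separate for this transcript as they were for the gene. Lef1-204, from the upstream start, was listed at 0 in 2 MIT-BATF libraries and in 4 MIT-Empty libraries, and reached 0.943 TPM at most. The 1208-base exon lies wholly within an antisense gene, Gm43352, and the protocol keeps no strand.

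**Figure D2:**
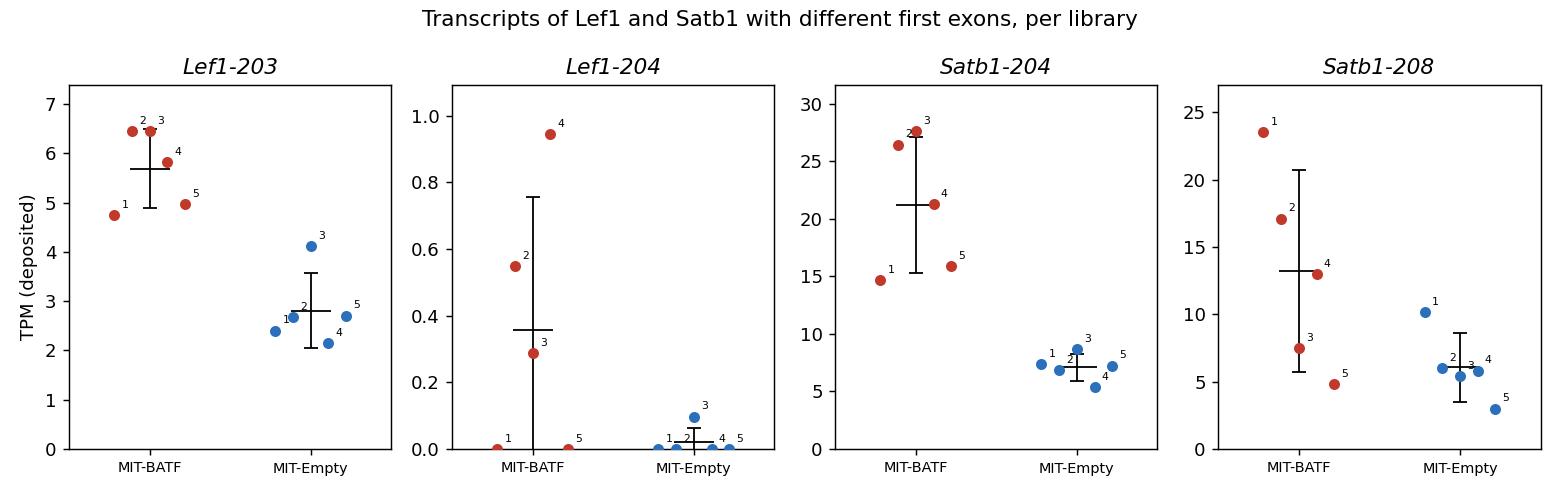
Deposited TPM (vertical axes starting at 0) of Lef1 and Satb1 transcripts with different first exons, MIT-BATF left and MIT-Empty right; numbers are replicates, bars are means and whiskers 1 SD (n = 5 libraries each). Lef1-203 and Satb1-204 were separate between the groups, Lef1-204 stayed at 0.943 TPM or less and Satb1-208 overlapped.

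Tcf7 encodes TCF1, the factor by which progenitor cells are usually recognised. It was at 140.5, 85.0, 62.6, 88.0 and 51.2 CPM in MIT-BATF libraries, against 89.5, 69.8, 88.8, 60.0 and 111 CPM in MIT-Empty libraries. The MIT-BATF group held both the highest and the lowest value, and the groups overlapped throughout. The log2 fold change was 0.03 (95% interval -0.49 to 0.55, edgeR adjusted p = 0.974), so a change of more than about 1.46-fold upward lies outside the interval. Its sign was not fixed, since it was -0.22 without MIT-BATF library 1 and -0.17 without MIT-Empty libraries 2 and 4. Tcf7-201 held 99.8% of Tcf7 TPM, and both listed Tcf7 transcripts carry a 303-codon reading frame. No Tcf7 transcript with a longer frame was listed for reads to be assigned to. The share therefore cannot tell whether longer forms were present.

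Id3 encodes an inhibitor of E proteins that is kept in memory precursors, and Id2 its counterpart in effector cells. Id3 was at 9.74, 9.69, 10.3, 13.02 and 11.5 CPM in MIT-BATF libraries, against 13.3, 12.5, 19.9, 11.3 and 29.2 CPM in MIT-Empty libraries. MIT-Empty libraries 2 and 4 lay within the MIT-BATF range and the other 3 above it, with library 5 the highest. The log2 fold change of Id3 was -0.68 (95% interval -1.20 to -0.16, unadjusted p = 0.0145, edgeR adjusted p = 0.145) and -0.38 without MIT-Empty library 5. Id2 was at 703, 779, 779, 908 and 1165 CPM in MIT-BATF libraries, against 340.3, 371, 525, 466 and 606 CPM in MIT-Empty libraries. The Id2 groups did not overlap, with a log2 fold change of 0.91 (SE 0.19, edgeR adjusted p = 0.0146), and with shared reads counted once it was 0.85 with the call lost (adjusted p = 0.185) and the groups overlapped.

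Set against each other within a library, Id3 and Id2 gave the clearest separation of the 4 pairs of opposed regulators compared. The log2 ratio of Id3 to Id2 (TPM, pseudocount 0.5) was -5.45, -5.71, -5.78, -5.57 and -6.15 in MIT-BATF libraries, against -4.09, -4.33, -4.21, -4.70 and -3.95 in MIT-Empty libraries. Every MIT-BATF library was below every MIT-Empty library. The mean was -5.73 ± 0.27 in MIT-BATF and -4.25 ± 0.29 in MIT-Empty cells (SD, n = 5 each) and the difference was -1.48 (exact two-sided permutation test, p = 0.00794, the smallest the design allows, adjusted p = 0.0317 over 4 pairs). The difference stayed between -1.59 and -1.35 under every alternative run for it, each with an adjusted p of at most 0.0317. In 10 of these alternatives 1 library was left out. Separate groups stay separate then, so the p-values of those 10 runs add no support. None of the alternatives left out all contained or all containing libraries. The permutation takes all libraries as separate, which the nested counts put in doubt.

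The other 3 ratios missed the threshold after adjustment. Zeb1 and Zeb2 encode related repressors of which Zeb1 is tied to memory and Zeb2 to terminal effector cells. Their log2 ratio was 1.17 ± 0.22 in MIT-BATF and 0.49 ± 0.65 in MIT-Empty cells (SD, n = 5 each; exact two-sided permutation test, p = 0.0397, adjusted p = 0.0794). MIT-Empty library 5, at 1.20, lay inside the MIT-BATF range of 0.93 to 1.46, and MIT-Empty library 4 was lowest at -0.54. The ratio of Bcl6 to Prdm1, which encodes the repressor BLIMP1, was 2.40 ± 0.53 in MIT-BATF and 2.25 ± 0.62 in MIT-Empty cells (exact permutation p = 0.675). The ratio of Bach2 to Batf was -1.58 ± 0.85 in MIT-BATF and -2.59 ± 0.70 in MIT-Empty cells, a difference of 1.01 (exact permutation p = 0.0873, adjusted p = 0.116), and the groups overlapped.

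**Figure D3:**
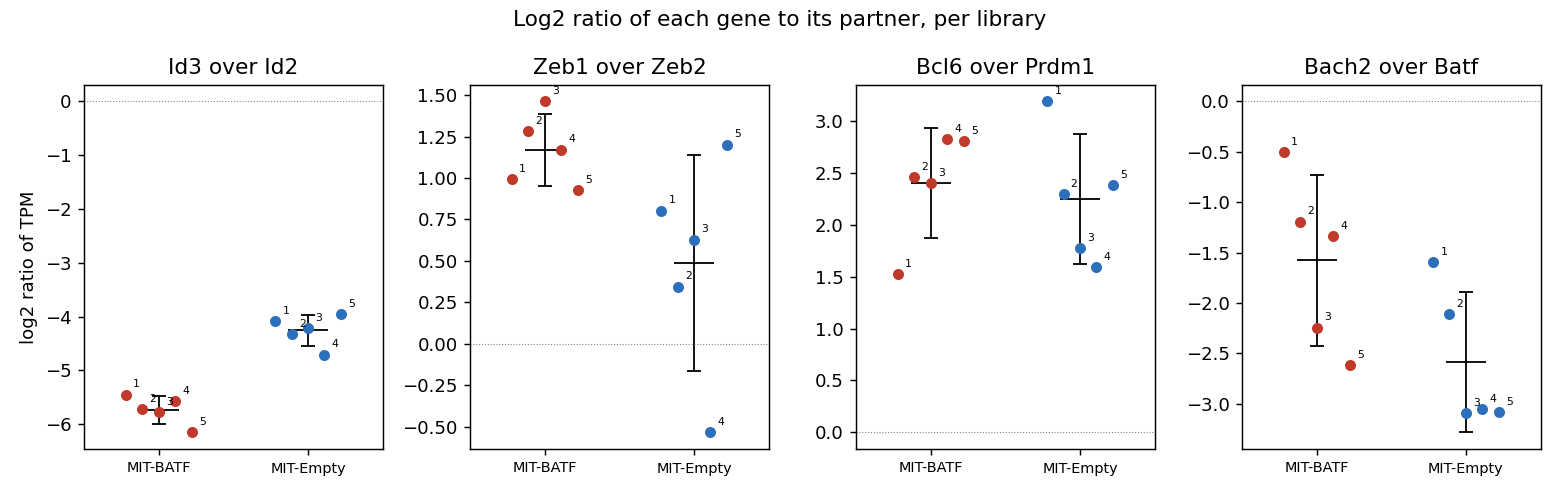
Log2 ratio of TPM (pseudocount 0.5) of Id3 over Id2, Zeb1 over Zeb2, Bcl6 over Prdm1 and Bach2 over Batf in each library, MIT-BATF left and MIT-Empty right; numbers are replicates, bars are means, whiskers 1 SD (n = 5 libraries each) and the dotted line is a ratio of 1. Only Id3 over Id2 is separate between the groups, with MIT-BATF at -5.45 or less and MIT-Empty at -4.70 or more.

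Bach2 encodes a repressor that occupies AP-1 sites and restrains effector genes. It was at 77.6, 88.1, 41.3, 81.8 and 31.7 CPM in MIT-BATF libraries, against 47.6, 36.5, 36.8, 29.9 and 33.3 CPM in MIT-Empty libraries. MIT-BATF libraries 1, 2 and 4 stood above all MIT-Empty libraries, while libraries 3 and 5 lay within their range. Libraries 2 and 4 share reads, as do 3 and 5. Its log2 fold change was 0.80 (95% interval 0.25 to 1.34, edgeR adjusted p = 0.0964). It passed in DESeq2 (adjusted p = 0.0321), with no filter on low counts (0.0291) and without MIT-BATF library 5 (0.0213), and its adjusted p was 0.202 with shared reads counted once.

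Myb encodes a factor needed for the self-renewal of stem-like cells. It was at 56.5, 29.4, 19.1, 24.8 and 14.4 CPM in MIT-BATF libraries, against 64.8, 57.6, 42.3, 30.2 and 44.1 CPM in MIT-Empty libraries. MIT-BATF libraries 2 to 5 were below every MIT-Empty library, and library 1 lay within the MIT-Empty range. Myb differed by -0.74 on the log2 scale (95% interval -1.40 to -0.08, edgeR adjusted p = 0.219). Without MIT-BATF library 1 it was -1.12 with an adjusted p of 0.015, the only alternative run in which any of the 10 genes passed as lower.

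The remaining 4 genes differed less, and their groups overlapped. Foxo1, whose protein enters the nucleus when AKT signaling is low, averaged 79.4 ± 13.5 CPM with MIT-BATF and 60.6 ± 11.7 CPM with MIT-Empty (SD over 5 libraries a group), for a log2 fold change of 0.39 (edgeR adjusted p = 0.222). Zeb1 had 40.2 ± 17.6 CPM with MIT-BATF and 31.1 ± 4.09 CPM with MIT-Empty (0.37, adjusted p = 0.469), and its MIT-BATF range of 22.2 to 68.1 CPM enclosed all MIT-Empty values. Bcl6, the repressor that opposes BLIMP1, had 40.9 ± 4.82 CPM with MIT-BATF and 38.0 ± 9.03 CPM with MIT-Empty (0.10, adjusted p = 0.811). Slamf6 had 62.5 ± 3.52 CPM with MIT-BATF and 55.2 ± 20.0 CPM with MIT-Empty (0.17, adjusted p = 0.716). In CPM, Slamf6 had a coefficient of variation of 5.64% in MIT-BATF and 36.2% in MIT-Empty, where libraries ran from 36.2 to 87.4 CPM. In TPM its coefficient of variation was 29.7% in MIT-BATF and 38.1% in MIT-Empty.

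**Figure D4:**
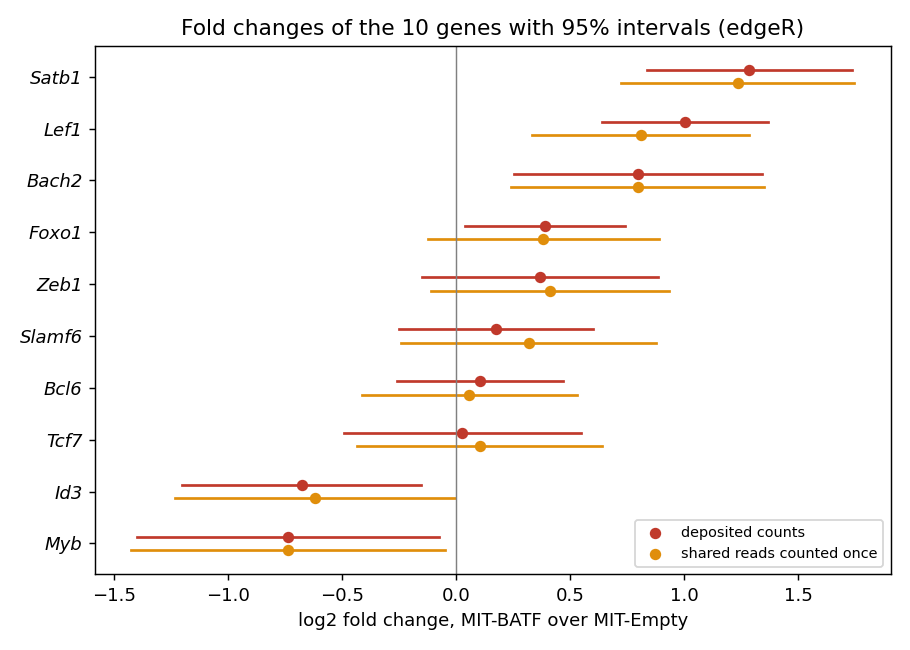
Log2 fold changes (MIT-BATF over MIT-Empty, horizontal axis) of the 10 genes with 95% intervals from edgeR, for the deposited counts and with reads shared between nested libraries counted once. Satb1 at 1.28 and Lef1 at 1.00 are the 2 genes that passed with the deposited counts, and Satb1 alone passed with shared reads counted once.

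The libraries did not move alike across the genes. Within MIT-BATF, library 1 was highest for Tcf7, Satb1, Myb, Zeb1 and Slamf6, and library 5 was lowest for Tcf7, Satb1, Bach2, Myb, Foxo1 and Zeb1. Within MIT-Empty, library 4 was lowest for 9 of the 10 genes, all but Satb1, and library 5 was highest for Tcf7, Id3, Bcl6, Zeb1 and Slamf6. MIT-Empty library 4 was also the shallowest, with 6534472 counts, and held the most melanoma marker RNA, at a sum of 1738 CPM, and the most fibroblast and endothelial marker RNA, at 96.2 CPM. The part of these in its low values was not tested. In these bulk samples, fewer cells with a gene on and less RNA per cell cannot be told apart.

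Transcript make-up was compared for the 5 genes with a second transcript of at least 5% of TPM. Besides Satb1, the main transcript of Bach2, Myb and Slamf6 took shares that differed by -6.61 to 1.39 percentage points, with adjusted p of 0.661 to 0.937 (exact two-sided permutation tests). Zeb1-203, a transcript with no annotated reading frame, took 40.2 ± 9.22% of Zeb1 TPM in MIT-BATF and 26.2 ± 7.96% in MIT-Empty cells (SD, n = 5 each; exact permutation p = 0.0476, adjusted p = 0.238 over 5 genes). MIT-BATF library 5, at 24.8%, lay within the MIT-Empty range. Annotated genes overlap exons of 7 of the 10 members, mostly on the other strand. Of these 8 overlapping genes 7 were not counted separately. Reads from the shared bases of those 7, 0.673% to 13.8% of a member's exon bases, could thus have been assigned to the member.

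Around these genes, 7 lists of companion genes gave 106 genes, of which 90 were tested. The memory and progenitor list held 26 genes, of which 24 were tested, 5 were higher and 3 were lower, with a median log2 fold change of 0.24. Among the lower genes, Dapl1, which is high in memory and progenitor CD8+ T cells, averaged 59.1 ± 18.1 CPM with MIT-BATF and 362 ± 93.9 CPM with MIT-Empty (SD over 5 libraries a group; log2 fold change -2.61, edgeR adjusted p = 4.3e-05). Actn1, an actin crosslinker, and Cd200, an inhibitory ligand of progenitor cells, also fell, by 1.97 and 1.77 on the log2 scale (adjusted p = 0.00239 and 0.00833). Among the higher genes were Runx1 (1.01), Bcl2, which protects from cell death (0.67), S1pr1, the receptor for exit from tissue (1.20), Foxp1, which keeps naive cells quiescent (0.67), and Kit (1.64). With shared reads counted once, 2 remained higher, Bcl2 and S1pr1, and the same 3 remained lower. The other 16 tested genes passed in neither direction. Not called were Il7r, the IL-7 receptor (log2 fold change 0.60, adjusted p = 0.0599), and Ccr7, the lymph node homing receptor (-0.45, 0.197).

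Partners of TCF1 and LEF1 gave no call: of 22 genes for beta-catenin, its cofactors and regulators and the TLE corepressors, 16 were tested, 0 were higher and 0 lower, and the median log2 fold change was -0.05. The smallest p belonged to Gsk3b, a kinase that marks beta-catenin for decay (log2 fold change -0.43, edgeR adjusted p = 0.13), and to the Wnt coreceptor gene Lrp6 (-0.65, adjusted p = 0.145). At an unadjusted p under 0.05, 1 gene was higher and 2 were lower, and DESeq2 called 0. Among 7 E protein and Id genes, Id3 included, 6 were tested, Id2 was higher and Tcf4, an E protein gene, was lower, with MIT-BATF cells at 1.27 ± 0.49 CPM and MIT-Empty cells at 3.51 ± 1.35 CPM (SD over 5 libraries a group). Its log2 fold change was -1.48 (edgeR adjusted p = 0.0412). With shared reads counted once neither was called (Tcf4 adjusted p = 0.235). Tcf12, which encodes the E protein HEB, had 54.1 ± 22.5 CPM with MIT-BATF and 51.3 ± 7.92 CPM with MIT-Empty (0.08, adjusted p = 0.908).

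Relatives of the 10 genes gave no call in edgeR among 6 tested of 9, while DESeq2 called 1, Foxo4, and 2 were higher at an unadjusted p under 0.05. The log2 fold change was 1.01 for Foxo4 (edgeR adjusted p = 0.0651) and 0.88 for Bach1 (adjusted p = 0.142), while Foxo6 and Bcl6b were at 0.246 CPM or less in every library. Of 14 cofactor genes, Mafk, which encodes a small MAF partner of BACH proteins, was higher, with 6.82 ± 2.27 CPM for MIT-BATF and 3.24 ± 0.53 CPM for MIT-Empty (log2 fold change 1.07, edgeR adjusted p = 0.0381, and 0.237 with shared reads counted once). The SLAM family and its adaptors gave no call in edgeR among 8 tested of 12, while DESeq2 called 2 as higher, Slamf1 and Slamf7, with Slamf7 at 0.68 (adjusted p = 0.0722), Slamf1 at 0.63 (0.092) and a median of 0.22. Slamf6 is itself among the 8 tested, so its place near this median is not read as a result.

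Transcription factors of effector and exhausted cells were set beside them. Of 18 genes, 2 were higher (Id2 and Hif1a) and 3 lower (Tox, Ikzf2 and Nr4a3), and the median log2 fold change was 0.00. Tox, the factor that installs exhaustion, averaged 9.19 ± 3.15 CPM with MIT-BATF and 31.3 ± 10.6 CPM with MIT-Empty (SD over 5 libraries a group; log2 fold change -1.79, edgeR adjusted p = 0.00123). Ikzf2, which encodes HELIOS, fell by 1.36 on the log2 scale (adjusted p = 0.00927), and Nr4a3 fell by 0.59 (adjusted p = 0.0371). With shared reads counted once, Tox and Ikzf2 were called as lower, and Id2 (adjusted p = 0.185) and Hif1a (0.218) were not called.

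**Figure D5:**
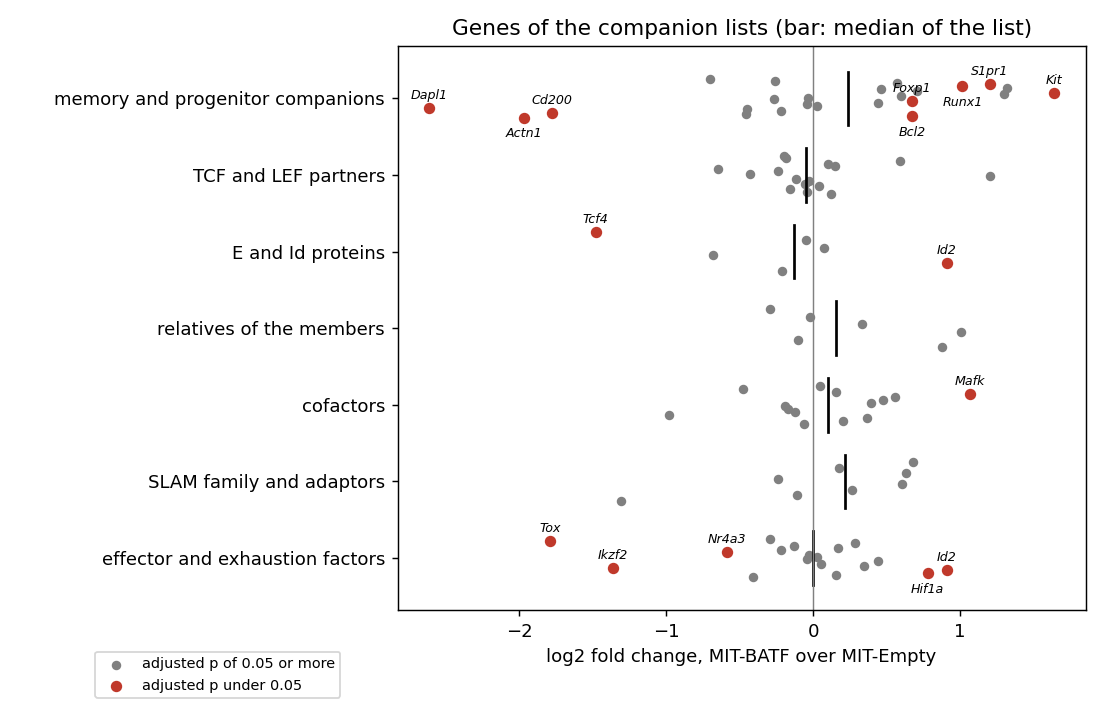
Log2 fold changes (MIT-BATF over MIT-Empty, horizontal axis) of the tested genes on the 7 companion lists, with genes past an edgeR adjusted p of 0.05 in red and named, others in grey, and a bar at each list's median. The memory and progenitor row holds called genes on both sides, from Dapl1 at -2.61 to Kit at 1.64.

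Markers of other cells differed between the groups, in both directions. Of the 10 T cell markers, led by Cd3d, 0 were called in edgeR or DESeq2 and 0 had an unadjusted p under 0.05, with a summed level of 4154 to 5764 CPM in MIT-BATF and 4055 to 5790 CPM in MIT-Empty libraries. All 6 tested of 8 melanoma markers were lower, led by Tyrp1, with sums of 14.4 to 29.5 CPM in MIT-BATF against 39.7 to 1738 CPM in MIT-Empty libraries. With shared reads counted once, 2 of 5 melanoma markers were lower. Of 12 tested of 13 macrophage and monocyte markers 5 were lower, led by Cd74, with sums of 56.6 to 117 CPM for MIT-BATF against 243 to 359.9 CPM for MIT-Empty, and 2 of 11 were lower with shared reads counted once.

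Other marker lists were smaller or mixed. B cell markers summed to 34.8 to 57.4 CPM with MIT-BATF against 70.9 to 159.9 CPM with MIT-Empty, nearly all Ighm, which was lower (log2 fold change -1.32, edgeR adjusted p = 0.00315). Cd79b was higher (1.79, adjusted p = 0.0175, and 0.128 with shared reads counted once), while Ms4a1 and Cd79a stayed at 0.245 CPM or less in every library. Dendritic cell markers summed to 15.5 to 21.7 CPM for MIT-BATF against 10.8 to 15.1 CPM for MIT-Empty. Of these 6 markers 2 were tested, and they lay on opposite sides. Xcr1, a chemokine receptor gene, was higher (2.06, edgeR adjusted p = 0.00067, and 0.00911 with shared reads counted once). Zbtb46 lay on the lower side and was not called (-0.695, edgeR unadjusted p = 0.0377, adjusted p = 0.239). Erythroid sums, led by Hba-a2, ran from 0 to 488 CPM for MIT-BATF against 0 to 72.7 CPM for MIT-Empty, with none of the 4 genes called in edgeR or DESeq2, 1 (Hbb-bt) higher at an unadjusted p under 0.05 and a median log2 fold change of 2.30. The fibroblast and endothelial sum, with Pecam1 the highest gene in MIT-BATF, was 8.14 to 14.0 CPM for MIT-BATF against 14.6 to 96.2 CPM for MIT-Empty. CD4 T cell and NK cell sums, led by Cd40lg and Eomes, stayed at 20.5 CPM or less. The part of these cells in the levels of the 10 genes was not tested. Without MIT-Empty libraries 2 and 4, which held the most melanoma RNA, Satb1 (log2 fold change 1.25, edgeR adjusted p = 0.0349) and Lef1 (0.89, adjusted p = 0.0294) both passed. This fit was chosen after the data were seen, and it still held nested pairs in both groups.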

How the data were processed

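The authors made SMART-Seq2 libraries and read them as 37-base pairs. The deposited tables hold, per transcript, estimated counts and TPM values made with Salmon. The submitters' processing notes name mm10, and for Salmon no version is stated there or in the methods. The deposited effective transcript lengths entered the length-offset alternative. They also entered the TPM recomputed with shared reads counted once, which was used for the ratios and transcript shares. Of 112092 transcripts, 305 had no match in GENCODE and were left out. Sums of estimated counts over each gene were rounded to whole numbers. Groups and replicate numbers came from the sample labels. A further number in the names of the tables is the same in both groups for each replicate. Its meaning is not stated, and it was not used. The nested libraries carry the same replicate numbers in both groups. The members and gene lists were chosen with earlier results of these data known.

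All genes that edgeR's filterByExpr kept were tested by edgeR 4.0.16 (quasi-likelihood, TMM, condition only, Benjamini-Hochberg, threshold 0.05) in R 4.3.3, which was tested on simulated data. Ratios and transcript shares were compared by exact permutation of library labels over 252 assignments. Errors are SDs over libraries, and p-values measure the spread between libraries, some of which appear to share reads. Alternatives were DESeq2 1.42.0, limma 3.58.1 voom, RLE factors, other filters, each library left out, a replicate block, transcript length offsets, mitochondrial genes left out, and fits that handle the nested libraries. Fits without MIT-Empty libraries 2 and 4, and without MIT-BATF library 1 with shared reads counted once, were chosen after the data were seen.

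Named genes are the members, Batf, the 4 opposed regulators, up to 4 genes per companion list by smallest p, called genes against their list's majority, the most abundant marker of each list and defining markers at or near 0. Bcl2, S1pr1, Foxp1, Kit, Il7r, Ccr7, Foxo6, Bcl6b, Cd79b, Xcr1 and Hbb-bt were chosen after their values were seen. Some genes are not reported here.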

Additional observations from a re-analysis of the deposited data

Results flagged for a closer look

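Of 40 groups of 5 libraries checked with Dixon's test at 95%, 2 held a library far from the others, and chance alone flags about 1 group in 20. Batf in MIT-BATF library 1 was at 12.4 CPM, while the other 4 MIT-BATF libraries lay between 22.6 and 26.5 CPM. The share of Slamf6 TPM assigned to transcript Slamf6-201 was 61.6% in MIT-BATF library 1 and 26.8% to 33.2% in the other 4. The same library had the largest mitochondrial share, at 33.2%, and its part in either value was not tested.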

How the results depend on the processing

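The count of members called higher was 2 in the deposited counts. It was 1 (Satb1) with shared reads counted once, also without MIT-BATF library 1. It was 0 when the contained or the containing libraries were left out, fits for which the share over all genes was not counted. It was 3 (Bach2 added) in DESeq2 and with no filter, and 2 to 3 with any 1 library left out. The count called lower was 0, and 0 to 1 with any 1 library left out. For DESeq2, the fit with no filter and the fits with any 1 library left out, the share over all genes was not counted either. Changes in these counts are therefore not read as results about these genes. Tcf7 reversed its uncalled sign with voom (-0.036), MIT-Empty libraries 2 and 4 left out (-0.171), and MIT-BATF library 1 left out with shared reads counted once (-0.135), and ran from -0.221 to 0.166 with any 1 library left out. Bcl6 reversed without the contained libraries (-0.009) and without MIT-Empty libraries 2 and 4 (-0.067), and ran from -0.009 to 0.238 with any 1 library left out. On the same basis the ratio differences ran from 0.42 to 0.86 for Zeb1 over Zeb2 (adjusted p = 0.0159 without MIT-Empty library 5, exact permutation test) and from -0.006 to 0.392 for Bcl6 over Prdm1, and share differences from -4.12 to 6.72 percentage points for Bach2 and from -5.19 to 3.50 for Slamf6. As shares of estimated counts, Zeb1 differed by 11.6 points (exact permutation adjusted p = 0.0397) and Slamf6 by -1.40 points. Distinct companion genes called higher numbered 2 with shared reads counted once. The cause of these changes was not tested.

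Whether replicate numbers pair the libraries was not settled. Deviations of same-numbered libraries correlated at -0.05 to 0.22, and libraries with different numbers were not compared. With the number as a replicate block, edgeR called 235 genes higher and 239 lower over all genes, Lef1 and Satb1 among them, no member as lower, and Tcf7 had a log2 fold change of -0.024.

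With 53 counts of Lef1 in the shallowest library, depth limits the low members, and p-values assume 10 separate libraries, which the nested counts put in doubt.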
